A study of Mus musculus with 9 samples.

Results

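Purkinje cells are the output neurons of the cerebellar cortex, and 28 genes known for their expression in these neurons were followed here in the cerebellar RNA of mice that model spinocerebellar ataxia type 3 (SCA3). The rule that chose them is a list of symbols with no threshold on a measured value, and each was matched by its Ensembl gene ID. All 28 were among the 37816 genes of the count table, and all 28 passed the filter on low counts that left 19353 genes for testing.

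RNA was measured in whole cerebellar tissue of 9 mice on a C57BL/6 background, 3 per group, harvested at 18 months of age. All 9 mice were YAC transgenics for human ATXN3, with 15 CAG repeats in the 15Q group (the control) and 84 repeats in the 84Q and 84Q+IGF1 groups. Mice without a transgene were not among the samples. The 84Q+IGF1 mice received IGF1 at 50 mg/kg by weekly intraperitoneal injection from 9 to 18 months of age. For the 15Q and 84Q mice the protocol gives PBS (0.01 M) injections, while the treatment label reads untreated. The labels give no sex, and they do not say that a library came from more than 1 mouse.

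In a Purkinje cell, glutamate released by parallel fibers acts through a Gq protein and phospholipase C beta to produce inositol trisphosphate (IP3). IP3 opens the IP3 receptor on the endoplasmic reticulum, and calcium pumps, calcium-binding proteins and IP3-degrading enzymes end the signal. Mutations in several genes of this cascade cause ataxia in mice or humans. The genes below are ordered by their place in it.

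Library totals ran from 17482654 to 58269196 counts on genes, and the 15Q libraries were the deepest on average (41814405 ± 15730622, SD, n = 3, against 23044957 ± 5684371 in 84Q). The lowest count of any of the 28 genes in any library was 81, for Pcp4, so that all 28, the defining markers Calb1, Pcp2 and Car8 among them, were present in every library. Markers of skeletal muscle and intestine were higher in the 15Q libraries, and choroid plexus markers were high in 15Q replicates 1 and 3 and 84Q replicate 2.

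The share of the RNA that the 28 genes took together did not separate the 3 groups. They held between 1.03% and 1.13% of all counts in each library. Their summed level, in CPM (counts scaled to a fixed TMM-adjusted library total), was 11020 ± 211 in 15Q, 10838 ± 538 in 84Q and 11044 ± 624 in 84Q+IGF1 (mean ± SD, n = 3 each). Without Itpr1, the largest part of this sum, it was 7326 ± 279 in 15Q, 7520 ± 519 in 84Q and 7613 ± 688 in 84Q+IGF1. For both sums the group ranges overlapped, and the means differed by less than the spread within the 84Q and 84Q+IGF1 groups. In whole tissue, fewer Purkinje cells and less RNA per cell cannot be told apart.

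Levels of different genes were compared as TPM, which divide the counts by the length of each gene's exons before scaling. Car8, a carbonic anhydrase relative without enzyme activity that binds the IP3 receptor, was the highest of the 28 with a mean of 1486 TPM over the 9 libraries. Its values were 1415, 1570 and 1473 TPM in the 15Q libraries, 1416, 1374 and 1574 in 84Q, and 1661, 1527 and 1366 in 84Q+IGF1. On this scale its lowest library was above the highest library of any other of the 28 genes, and its 3 groups overlapped. The distance depends on the length used: per base of the longest transcript, the means were 1182 TPM for Car8 and 1119 TPM for Itpr1, the next gene.

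Itpr1, the IP3 receptor itself, was second with a mean of 758 TPM. It had 765, 810 and 877 TPM in 15Q, 698, 825 and 608 in 84Q, and 643, 844 and 754 in 84Q+IGF1. Its lowest values lay in 84Q replicate 3 and 84Q+IGF1 replicate 1. Calb1, the calcium buffer calbindin, followed with a mean of 680 TPM, and had 670, 660 and 653 TPM in 15Q, 666, 661 and 749 in 84Q, and 763, 649 and 652 in 84Q+IGF1. The library ranges of Itpr1 and Calb1 overlapped, so their order is not settled by these libraries.

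Dner, a cell surface protein through which Purkinje cells signal to Bergmann glia, had a mean of 553 TPM. Its values were 585, 526 and 485 TPM in 15Q, 505, 600 and 604 in 84Q, and 576, 565 and 533 in 84Q+IGF1. Rgs8, which speeds the shut-off of G proteins, had a mean of 526 TPM, with 525, 551 and 480 in 15Q, 466, 522 and 567 in 84Q, and 594, 553 and 475 in 84Q+IGF1. The ranges of Dner and Rgs8 overlapped. Ppp1r17, a phosphatase inhibitor and substrate of the cGMP-dependent protein kinase, had a mean of 420 TPM, with 393, 427 and 384 in 15Q, 383, 400 and 471 in 84Q, and 467, 431 and 421 in 84Q+IGF1. In none of these 6 genes did all 3 groups separate, and 5 of the 6 were still among the 6 highest when the length of the longest transcript replaced that of all exons.

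The remaining 22 genes ranged from a mean of 328 TPM (Pcp2) to 3.04 TPM (Foxp2). The lowest 3 were Pcp4 (14.1 TPM), Ebf2 (8.02 TPM) and Foxp2, and the ranges of these 3 did not overlap. Pcp4 encodes a calmodulin-binding peptide. Of all 31-base words in the transcripts of Pcp4, 19.9% also occur in another gene, chiefly Igsf5, and reads from these words may not have been counted for either gene, so its level is uncertain. Of the other 27 genes, at most 2.03% of the words were shared (Pde5a).

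**Figure D1:**
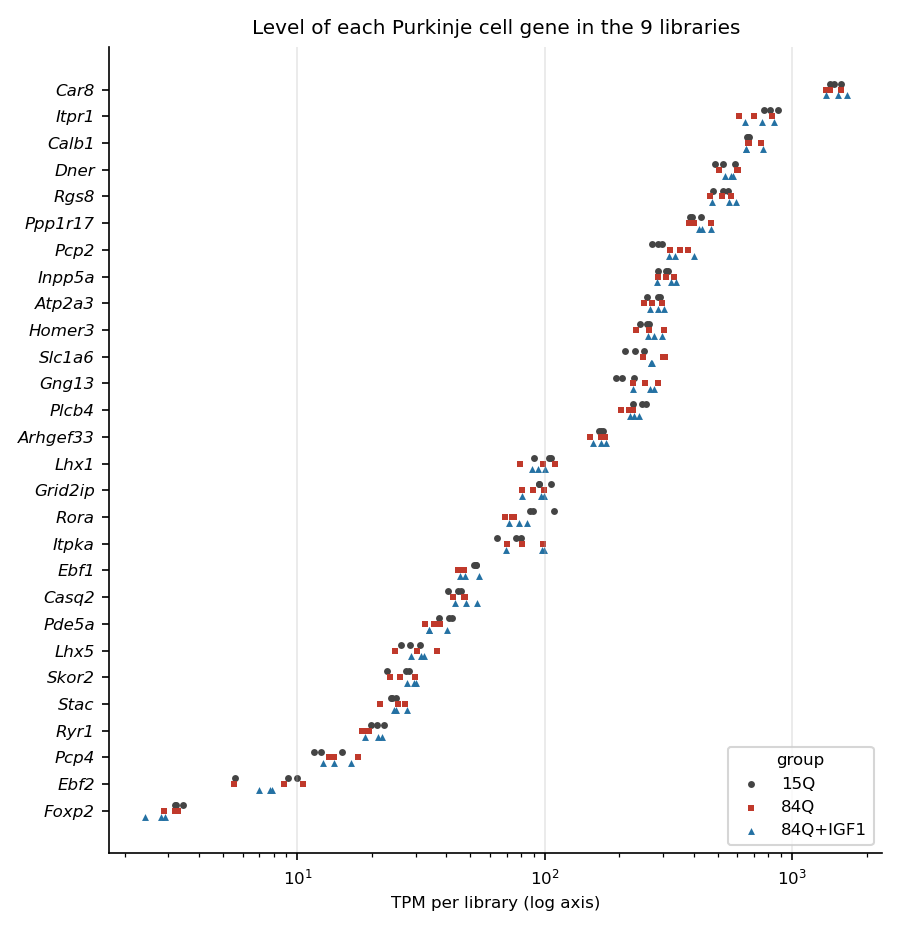
Level of each of the 28 genes in TPM (log axis), with a point per library (dark circles 15Q, red squares 84Q, blue triangles 84Q+IGF1) and genes in order of their mean. With exon lengths summed, Car8 stands above the other genes in each library, Foxp2 is lowest, and within a gene the 3 groups lie close together.

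The first question of the design was whether these genes differed between mice with 84 and with 15 repeats. The 15Q mice were donated by a laboratory and the 84Q mice came from a supplier. Repeat length therefore cannot be told apart from other differences between the lines. A call required a change of 1.5-fold or more (0.58 on the log2 scale) with an adjusted p under 0.1 in edgeR's quasi-likelihood test. In 84Q against 15Q, 0 of the 28 genes were called, where 2.14% of all tested genes were. At an adjusted p under 0.1 without the fold requirement, 3 of the 28 passed, against 4.80% of all tested genes. Slc1a6 and Pcp2 were higher in 84Q (1.54% of all tested genes were) and Rora was lower (3.25%). At an unadjusted p under 0.05 there were 5 of the 28, against 19.4%. The 95% confidence interval of the log2 fold change lay within a 1.5-fold change in either direction for 27 of the 28, the exception being Pcp4 (−0.16 to 0.61).

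In 84Q+IGF1 against 15Q, 0 of the 28 genes were called (2.25% of all tested genes were), and 0 passed an adjusted p under 0.1 alone (3.67%). Here 5 of the 28 had an unadjusted p under 0.05, against 17.7% of all tested genes, and DESeq2 put 3 of the 28 (Gng13, Pcp2 and Rora) and 1251 of all 37816 genes in its fit at an adjusted p under 0.1. In the contrast of all 6 libraries with 84 repeats against 15Q, 0 of the 28 were called (3.51%), and 4 passed an adjusted p under 0.1 (9.75%). Pcp2, Gng13 and Slc1a6 were higher (3.64% of all tested genes were) and Rora was lower (6.11%). Their groups were also the 4 of the 28 without overlap in that contrast, beside 12.3% of all tested genes, and 5 of the 28 had an unadjusted p under 0.05 (22.6%). These comparisons share the 15Q libraries, and the last shares all of its libraries with the first pair, so they are not independent of each other.

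Over the 28 genes the median log2 fold change was 0.05 in 84Q against 15Q and 0.08 in 84Q+IGF1 against 15Q, beside 0.00 and −0.01 over all tested genes. In 84Q against 15Q, 19 of the 28 had a fold change above 0, beside 49.7% of all tested genes. The lowest was that of Rora (−0.35) and the highest were those of Slc1a6, Pcp2 and Gng13 (0.34 each). In 6 of the 28 every library of one group lay above every library of the other (Calb1, Pcp2, Gng13 and Slc1a6 higher in 84Q, Rora and Ebf1 lower), beside 25.4% of all tested genes, of which 11.9% were higher and 13.5% lower. In 84Q+IGF1 against 15Q, 18 of the 28 were above 0 (48.9% of all tested genes) and 5 did not overlap (24.7%), namely Pcp2, Gng13, Slc1a6, Rora and Foxp2, and in the contrast of the 6 libraries 18 were above 0 (48.7%). For 84Q against 15Q the shares of the 28 were 67.9% above 0 and 21.4% without overlap, and 10.7% at an adjusted p under 0.1. The first and the last are above the shares over all tested genes and the second is below, and each rests on few genes.

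**Figure D2:**
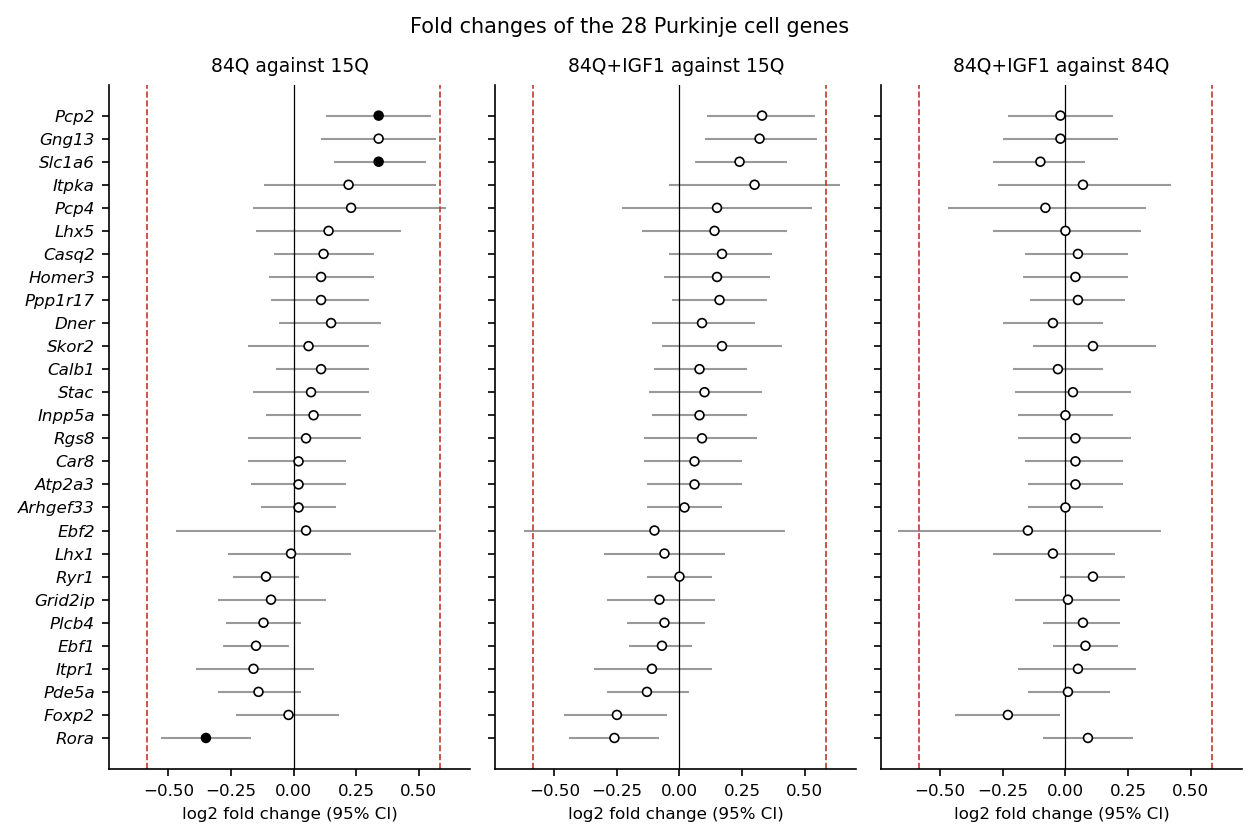
Log2 fold change (point) and 95% confidence interval (line) of each of the 28 genes in 84Q against 15Q, 84Q+IGF1 against 15Q and 84Q+IGF1 against 84Q, with filled points at an adjusted p under 0.1. Dashed lines mark a 1.5-fold change, which no point reaches, and only Slc1a6, Pcp2 and Rora in 84Q against 15Q are filled.

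Rora encodes the nuclear receptor RORα, which Purkinje cells need to mature and survive, and whose loss gives the staggerer mouse. The gene (ENSMUSG00000032238.17) lies on chromosome 9, 68653786 to 69388246, on the plus strand of GRCm38. It had 283, 291 and 346 CPM in the 15Q libraries, 248, 244 and 231 in 84Q, and 240, 276 and 253 in 84Q+IGF1. Each of the 6 libraries with 84 repeats was below each 15Q library, and 15Q replicate 3 was the highest of all. The RNA was of whole tissue, so the cell types behind this difference cannot be told apart. The log2 fold change of Rora was −0.35 in 84Q against 15Q (standard error 0.08, adjusted p = 0.0569) and −0.26 in 84Q+IGF1 against 15Q (standard error 0.08, adjusted p = 0.144). For the 6 libraries with 84 repeats together, against 15Q, it was −0.30 (adjusted p = 0.0362). Without 15Q replicate 3 the value for 84Q against 15Q was −0.25 (adjusted p = 0.217), and that for 84Q+IGF1 against 15Q was −0.15. In 84Q against 15Q, Rora also lost an adjusted p under 0.1 without 15Q replicate 2 or 84Q replicate 3.

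Slc1a6, the glutamate transporter EAAT4 of Purkinje cell spines, lies on chromosome 10, 78780496 to 78814765, plus strand. It had 135, 112 and 122 CPM in the 15Q libraries, 136, 164 and 169 in 84Q, and 149, 146 and 142 in 84Q+IGF1. The lowest 84Q library was only just above the highest 15Q library. Its log2 fold change was 0.34 in 84Q (standard error 0.08, adjusted p = 0.0643) and 0.24 in 84Q+IGF1 (standard error 0.08, adjusted p = 0.170), both against 15Q. In 84Q against 15Q, Slc1a6 lost an adjusted p under 0.1 without 15Q replicate 2 or 3 or 84Q replicate 2 or 3, and the highest adjusted p of these was 0.236.

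Pcp2, a modulator of Gi and Go proteins whose promoter is widely used to drive transgenes in Purkinje cells, lies on chromosome 8, 3623371 to 3625545, minus strand. It had 130, 135 and 121 CPM in the 15Q libraries, 149, 163 and 177 in 84Q, and 188, 153 and 142 in 84Q+IGF1, so that the 15Q libraries were the 3 lowest. The log2 fold change of Pcp2 was 0.34 in 84Q (standard error 0.10, adjusted p = 0.0936) and 0.33 in 84Q+IGF1 (standard error 0.10, adjusted p = 0.121). In 84Q against 15Q it lost an adjusted p under 0.1 when any 1 of 6 libraries was left out, which were the 3 of 15Q, 84Q replicates 2 and 3 and 84Q+IGF1 replicate 2. Without 84Q+IGF1 replicate 1, the log2 fold change of Pcp2 in 84Q+IGF1 against 15Q was 0.20.

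Gng13, a G protein gamma subunit, lies on chromosome 17, 25717171 to 25719406, plus strand. It had 39.1, 37.2 and 43.1 CPM in the 15Q libraries, 49.5, 45.0 and 57.2 in 84Q, and 55.1, 51.0 and 43.4 in 84Q+IGF1. The 15Q libraries were again the 3 lowest, 15Q replicate 3 being close to 84Q+IGF1 replicate 3. Its log2 fold change was 0.34 in 84Q (standard error 0.10, adjusted p = 0.114) and 0.32 in 84Q+IGF1 (standard error 0.10, adjusted p = 0.146). For the 6 libraries together it was 0.33 (adjusted p = 0.0617), which 15Q replicates 1, 2 and 3 each raised to 0.1 or above when left out.

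Of the exon bases of Pcp2 and Gng13, 51.5% and 51.6% lie opposite to exons of Pet100 and Chtf18 on the other strand. The strand setting of the counting is not given in the sources used here. Pet100 had 6.07 CPM in 15Q and 5.52 in 84Q, and Chtf18 5.17 and 4.88, both far below the Purkinje cell gene they overlap. Neither passed the test (log2 fold change −0.14, adjusted p = 0.693, and −0.09, adjusted p = 0.781, in 84Q against 15Q).

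**Figure D3:**
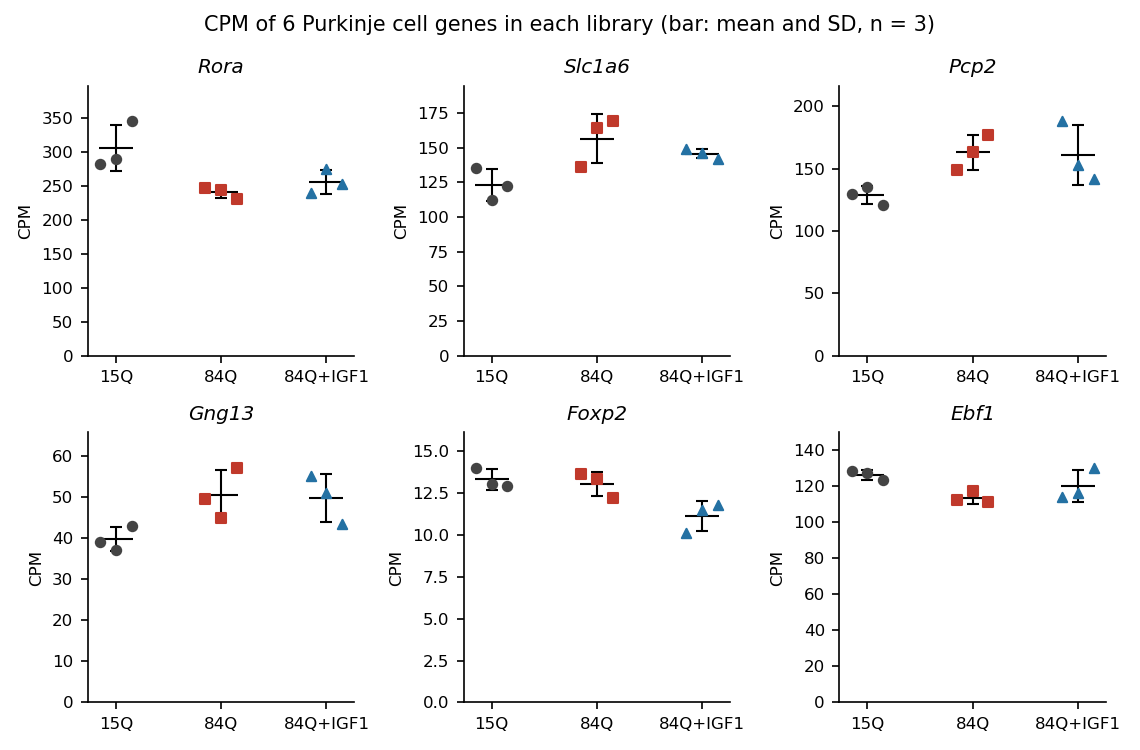
CPM of Rora, Slc1a6, Pcp2, Gng13, Foxp2 and Ebf1 in each library (points, replicates 1 to 3 from left to right) with the mean and SD of each group (n = 3), on axes that start at 0. The 15Q libraries are the highest for Rora and the lowest for Slc1a6, Pcp2 and Gng13, and the 84Q+IGF1 libraries are the lowest for Foxp2.

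RORα binds DNA at sites that hold the half-site AGGTCA. Since the gene of this factor and 3 other Purkinje cell genes had the smallest p of the 28, the 250 bases before the most upstream start of each are shown, read 5′ to 3′ in the direction of transcription from the RefSeq promoter table (GRCm38.p6). Capitals mark AGGTCA or its complement TGACCT. The windows are chr9:68653536-68653785 (plus strand) for Rora, chr10:78780246-78780495 (plus) for Slc1a6, chr8:3625548-3625797 (minus) for Pcp2 and chr17:25716922-25717171 (plus) for Gng13.
Rora: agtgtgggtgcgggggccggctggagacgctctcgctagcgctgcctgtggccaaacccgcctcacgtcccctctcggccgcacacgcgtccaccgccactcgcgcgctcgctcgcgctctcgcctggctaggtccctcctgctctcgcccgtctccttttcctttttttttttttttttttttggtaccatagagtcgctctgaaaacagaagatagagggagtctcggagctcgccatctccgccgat
Slc1a6: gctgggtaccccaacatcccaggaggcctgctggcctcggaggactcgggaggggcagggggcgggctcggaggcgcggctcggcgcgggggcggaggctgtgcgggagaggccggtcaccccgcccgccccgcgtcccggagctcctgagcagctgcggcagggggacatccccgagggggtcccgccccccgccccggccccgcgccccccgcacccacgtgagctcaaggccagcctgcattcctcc
Pcp2: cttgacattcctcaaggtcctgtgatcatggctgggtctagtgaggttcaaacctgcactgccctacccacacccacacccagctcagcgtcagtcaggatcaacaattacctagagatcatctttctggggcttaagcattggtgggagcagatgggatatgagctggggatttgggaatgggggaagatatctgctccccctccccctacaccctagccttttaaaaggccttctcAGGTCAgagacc
Gng13: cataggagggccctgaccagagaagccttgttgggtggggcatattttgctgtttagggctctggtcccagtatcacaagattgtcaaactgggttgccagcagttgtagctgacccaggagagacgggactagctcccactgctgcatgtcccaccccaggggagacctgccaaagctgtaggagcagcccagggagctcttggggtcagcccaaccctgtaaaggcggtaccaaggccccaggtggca
The Pcp2 window holds 1 half-site, which begins 12 bases before the start, and the other 3 windows hold 0. The table held 30 start sites for 20 of the 28 genes. The half-site was in 8 of these 30 windows (26.7%), those of Arhgef33, Dner, Homer3, Pcp2, Pcp4 and Rgs8, and in 14% of the 32851 windows of the same length in the table. The half-site and the cores that follow were searched on both strands as these letters only, without the bases beside them. The EBF core CCCNNGGG was in 10% of the windows of the Purkinje cell genes and in 11.8% of all windows, the LIM homeodomain core TAATTA in 6.67% and 4.84%, and the TATA box letters TATAAA in 3.33% and 12.4%. A match is a description of the letters, not of binding.

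None of the other G protein and glutamate synapse genes passed the test. Rgs8 had a log2 fold change of 0.05 in 84Q against 15Q (standard error 0.10, adjusted p = 0.845). Of the proteins at the glutamate synapse, Homer3, a postsynaptic scaffold that binds the IP3 receptor, had 0.11 (adjusted p = 0.560), and Grid2ip, a partner of the delta glutamate receptor, had −0.09 (adjusted p = 0.671). In 84Q+IGF1 against 15Q their values, in the same order, were 0.09, 0.15 and −0.08.

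The 5 genes of the IP3 pathway did not pass an adjusted p under 0.1 in any of the comparisons. Plcb4, the phospholipase C that makes IP3 in most Purkinje cells, had 539 CPM in the 15Q libraries, 495 in 84Q and 518 in 84Q+IGF1, a log2 fold change of −0.12 in 84Q against 15Q (95% confidence interval −0.27 to 0.03). Itpr1 had −0.16 (−0.39 to 0.08) and Car8 had 0.02 (−0.18 to 0.21). The IP3-degrading phosphatase gene Inpp5a had 0.08 (−0.11 to 0.27). Itpka, the kinase gene that converts IP3 further, had 0.22 (−0.12 to 0.57), and 0.30 in 84Q+IGF1 against 15Q (−0.04 to 0.64). A decrease of 1.5-fold or more lies outside each of these intervals in 84Q against 15Q.

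None of the calcium handling genes passed the test. Calb1 had a log2 fold change of 0.11 in 84Q (95% confidence interval −0.07 to 0.30, adjusted p = 0.495) and 0.08 in 84Q+IGF1 (−0.10 to 0.27), and Pcp4 had 0.23 and 0.15. The 84Q libraries of Calb1 (816 to 934 CPM) lay just above those of 15Q (771 to 807 CPM), and those of 84Q+IGF1 (779 to 951 CPM) overlapped both. Of the store proteins, the calcium release channel gene Ryr1 had −0.11 in 84Q (standard error 0.06, adjusted p = 0.334), the calcium pump gene Atp2a3 had 0.02 (adjusted p = 0.935) and the calcium buffer gene Casq2 had 0.12 (adjusted p = 0.520). Muscle also uses Ryr1 and Casq2, and the summed level of the skeletal muscle markers was 21.6 ± 3.93 CPM in the 15Q libraries, 4.77 ± 0.934 in 84Q and 4.44 ± 0.127 in 84Q+IGF1 (n = 3 each). Of 8 muscle markers tested, 7 were called lower in each comparison with 15Q, and Myh4 had at most 1 count in any of the other 6 libraries, against 88 to 324 counts in the 15Q libraries. Heart muscle markers summed to 12.7, 11.9 and 11.5 CPM in the 3 groups, and of the 2 that were tested 0 were called. The part of this RNA in the values of Ryr1 and Casq2 was not tested.

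The cGMP branch showed no call. Ppp1r17 had a log2 fold change of 0.11 in 84Q against 15Q (adjusted p = 0.551). Pde5a, the phosphodiesterase that degrades cGMP, had −0.14 (standard error 0.08, adjusted p = 0.335). Smooth muscle of vessels also expresses Pde5a, and vascular and mural markers summed to 390 ± 26.4 CPM in the 15Q libraries, 362 ± 6.74 in 84Q and 357 ± 26.1 in 84Q+IGF1, with 1 of 7 tested markers (Myh11) called lower in 84Q. Intestine markers summed to 36.0 ± 8.61, 5.38 ± 0.955 and 5.35 ± 0.497 CPM, and all 6 that were tested were called lower in both comparisons with 15Q. The defining intestine markers were not at 0: Muc13 had 1 to 6 counts per library outside the 15Q group. The part of this RNA in the values of Pde5a, Atp2a3 and Ebf1 was not tested.

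Genes of cell contact and scaffolding were Dner, the calcium channel adaptor gene Stac and the exchange factor gene Arhgef33. Their log2 fold changes in 84Q against 15Q were 0.15, 0.07 and 0.02. They were 0.09, 0.10 and 0.02 in 84Q+IGF1 against 15Q. All 6 of these values had an adjusted p of 0.417 or more.

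Of the 7 transcription factor genes, Rora was the 1 that passed an adjusted p under 0.1. Ebf1, an early B-cell factor gene that vascular cells also express, had 128, 127 and 123 CPM in the 15Q libraries, 112, 117 and 111 in 84Q, and 114, 116 and 130 in 84Q+IGF1. The 84Q libraries were all below those of 15Q, while 84Q+IGF1 replicate 3 was above them. Ebf1 had a log2 fold change of −0.15 in 84Q (standard error 0.06, adjusted p = 0.191) and −0.07 in 84Q+IGF1 (adjusted p = 0.544). Its relative Ebf2 had 0.05 and −0.10, with the widest interval of the list (−0.47 to 0.57 in 84Q). The LIM homeobox genes Lhx1 and Lhx5, which specify Purkinje cells in the embryo, had −0.01 and 0.14 in 84Q, and Skor2, a corepressor gene of differentiating Purkinje cells, had 0.06. Foxp2 had −0.02 in 84Q (adjusted p = 0.922).

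The second question was whether IGF1 treatment changed these genes in mice with 84 repeats. In 84Q+IGF1 against 84Q, 0 of the 28 genes and 0% of all 19353 tested genes were called by edgeR, and the same held without the fold requirement. At an unadjusted p under 0.05 there were 905 genes (4.68%), and 1 of the 28. DESeq2 put 7 genes and 0 of the 28 at an adjusted p under 0.1. The median log2 fold change was 0.02 over the 28 genes and 0.00 over all tested genes, and the values ran from −0.23 to 0.11, 18 of the 28 being above 0 (48.7% of all tested genes). In 1 of the 28 (Foxp2) the groups did not overlap, beside 8.46% of all tested genes. The 95% confidence interval lay within a 1.5-fold change for 27 of the 28, the exception being Ebf2 (−0.67 to 0.38).

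The single gene under 0.05 was Foxp2, a forkhead factor that marks Purkinje cells and some other cerebellar neurons. It had 14.0, 13.0 and 12.9 CPM in the 15Q libraries, 13.6, 13.3 and 12.2 in 84Q, and 10.1, 11.5 and 11.8 in 84Q+IGF1. All 84Q+IGF1 libraries were below the other 6, and 84Q replicate 3 was close to them. Its log2 fold change was −0.23 against 84Q (standard error 0.10, adjusted p = 0.969) and −0.25 against 15Q (standard error 0.09, adjusted p = 0.194). The next smallest p were those of Ryr1 and Ebf1. Ryr1 had 107, 114 and 119 CPM in the 15Q libraries, 104, 109 and 102 in 84Q, and 106, 120 and 114 in 84Q+IGF1, and a log2 fold change of 0.11 against 84Q (standard error 0.06, adjusted p = 0.969). Ebf1 had 0.08 (standard error 0.06, adjusted p = 0.969). For Ryr1 the 84Q+IGF1 libraries overlapped those of both other groups.

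The 4 genes named in the comparison with 15Q were close to their 84Q level in the treated mice. Against 84Q, Rora had a log2 fold change of 0.09 (95% confidence interval −0.09 to 0.27), Slc1a6 of −0.10 (−0.29 to 0.08), Pcp2 of −0.02 (−0.23 to 0.19) and Gng13 of −0.02 (−0.25 to 0.21). The intervals include both no change and, for Rora and Slc1a6, changes of a size near those seen against 15Q.

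The fold changes of the 28 genes followed the length of their transcripts. In 84Q against 15Q the Spearman correlation between the log2 fold change and the length of the longest transcript was −0.86 across the 28 genes, and in 84Q+IGF1 against 15Q it was −0.86. Across the 15129 other tested protein-coding genes the correlations were −0.33 and −0.25. Genes are not independent replicates, and the points share the same libraries, so these are descriptions. Without the 4 genes of smallest p in the contrast of all 84-repeat libraries, the correlation across the remaining 24 was −0.81 in 84Q and −0.80 in 84Q+IGF1. In 84Q+IGF1 against 84Q it was 0.27 across the 28 and 0.15 across the other genes.

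The 5 genes with a longest transcript under 2000 bases (Pcp4, Ppp1r17, Pcp2, Gng13 and Itpka) had a median log2 fold change of 0.23 in 84Q against 15Q, and all 5 were above 0. The median of 3051 other coding genes of such length was 0.10. The 12 genes from 2000 to 4000 bases had a median of 0.07, beside 0.04 for the other genes, and the 5 from 4000 to 6000 bases had 0.02, beside −0.01. The 6 genes of 6000 bases and over (Pde5a, Rgs8, Itpr1, Ryr1, Rora and Foxp2) had a median of −0.12, with 1 above 0, and 2211 other genes also had −0.12. The longest transcripts of Slc1a6 (2029 bases), Pcp2 (1606) and Gng13 (719) were short for this list, and that of Rora (10878) was long.

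The libraries themselves differed in this trend. Over 15157 coding genes, the slope of log2 CPM, relative to the mean of all libraries, per doubling of transcript length was 0.0263, 0.0182 and 0.0393 in 15Q. It was −0.0105, 0.00244 and −0.0621 in 84Q, and −0.0486, 0.0293 and 0.00566 in 84Q+IGF1. The 2 steepest falls, in 84Q replicate 3 and 84Q+IGF1 replicate 1, were in the libraries that held the highest value for 9 and for 10 of the 28 genes. These 2 libraries held the lowest value for 6 and for 1. 15Q replicate 3, with the steepest rise, held the lowest value for 12 and the highest for 2. It also had the highest total of counts (58269196), and 84Q replicate 3 had the lowest (17482654).

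When a trend with length was removed from each library, a choice made after seeing the data, 0 of the 28 genes stayed under an adjusted p of 0.1 in 84Q against 15Q, and Pcp2 and Slc1a6 stayed in the contrast of all 6 libraries. The log2 fold change of Rora in 84Q then was −0.16 (standard error 0.06, adjusted p = 0.178). That of Slc1a6 was 0.26 (standard error 0.08, adjusted p = 0.132), that of Pcp2 was 0.25 (standard error 0.08, adjusted p = 0.168) and that of Gng13 was 0.22 (standard error 0.09, adjusted p = 0.235). All 4 kept their direction. With the 2 libraries of steepest fall left out instead, Pcp2 had 0.28 (adjusted p = 0.0968) and Rora −0.32 (adjusted p = 0.156) in 84Q against 15Q.

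**Figure D4:**
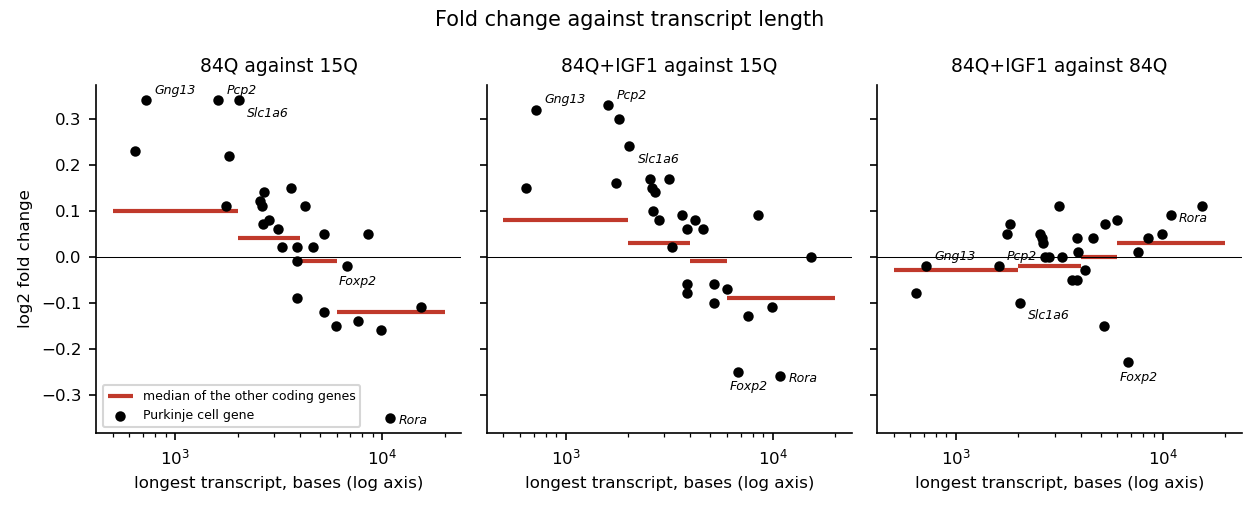
Log2 fold change of the 28 genes (black points) against the length of their longest transcript (log axis, bases) in the 3 comparisons, with the median of the other tested coding genes in 4 ranges of length (red lines). In both comparisons with 15Q the genes under 2000 bases lie above 0 and most of those over 6000 bases below it, Rgs8 being an exception, and in 84Q+IGF1 against 84Q most points lie near 0 at any length.

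Markers of the other cell types of the cerebellum gave a frame for these values. The 10 granule cell markers summed to 6936 ± 296 CPM in the 15Q libraries, 6904 ± 98.8 in 84Q and 7057 ± 557 in 84Q+IGF1, and 0 of them passed an adjusted p under 0.1 in any comparison. The 8 molecular layer interneuron markers summed to 634 ± 29.5 CPM in 15Q (608 to 666), 576 ± 32.1 in 84Q (540 to 601) and 615 ± 12.8 in 84Q+IGF1 (600 to 623). The part of these cells in the values of Rora was not tested. Of these 8 markers, 1 was lower in 84Q at an adjusted p under 0.1 (Tfap2b), beside 4.80% of all tested genes, though it did not reach 1.5-fold. Against 15Q, 84Q+IGF1 had 1 of 9 Bergmann glia and astrocyte markers (Aqp4) lower at that level, beside 3.67% of all tested genes. None of the 6 Golgi and unipolar brush cell, 5 cerebellar nuclei or 10 choroid plexus markers passed it in these 2 comparisons, although the choroid plexus sum ran from 28.4 to 1057 CPM between libraries. In the contrast of all 6 libraries with 84 repeats, 9.75% of all tested genes passed it. There, 3 of the 9 Bergmann glia and astrocyte markers (Gdf10, Aqp4 and Slc1a2) were lower. Of the 6 Golgi and unipolar brush cell markers, 1 (Slc6a5) was lower. None of either list was higher. No marker of any list passed in 84Q+IGF1 against 84Q.

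Genes that act with the 28 in the same cascade were described by a list of 32, all of them tested. None of the 32 was called in any of the comparisons. Gnaq, the Gq alpha subunit gene, had 221 CPM in 15Q and 218 in 84Q (log2 fold change −0.02, adjusted p = 0.856). At an adjusted p under 0.1 without the fold requirement, 1 of the 32 was higher and 1 lower in 84Q against 15Q (4.80% of all tested genes passed), and 2 were higher in 84Q+IGF1 against 15Q (3.67%). There were 0 of the 32 in 84Q+IGF1 against 84Q. The genes behind these counts are named after their values were seen.

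Pvalb, the calcium buffer parvalbumin of Purkinje cells and interneurons (and of fast muscle), had 181 ± 3.08 CPM in the 15Q libraries, 216 ± 17.5 in 84Q and 224 ± 14.8 in 84Q+IGF1 (SD, n = 3). Its log2 fold change was 0.25 in 84Q (adjusted p = 0.0876) and 0.30 in 84Q+IGF1 (adjusted p = 0.0484), while the muscle markers, from whose sum Pvalb was left out, were lower in both groups. With the length trend removed from each library, Pvalb had 0.13 in 84Q (adjusted p = 0.204) and 0.21 in 84Q+IGF1 (adjusted p = 0.0513). Calr, the store protein calreticulin, had a log2 fold change of 0.32 in 84Q+IGF1 against 15Q (adjusted p = 0.0666), and 0.27 (adjusted p = 0.0799) with that trend removed. Shank1, a postsynaptic scaffold gene with a transcript of 9826 bases, had −0.25 in 84Q against 15Q (adjusted p = 0.0706), and −0.07 (adjusted p = 0.650) with the length trend removed but −0.37 (adjusted p = 0.0166) with a GC trend removed instead. Each of these 3 lost an adjusted p under 0.1 without 15Q replicate 2 or without 15Q replicate 3. Shank1 also lost it without 84Q replicate 1 or 3, Calr without 84Q+IGF1 replicate 1, and Pvalb in 84Q without 15Q replicate 1, 84Q replicate 1, 84Q replicate 3 or 84Q+IGF1 replicate 3 and in 84Q+IGF1 without its replicate 1.

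In the contrast of all 6 libraries with 84 repeats against 15Q, Pvalb and Calr were higher and Shank1, Camk4 and Prkg1 lower at an adjusted p under 0.1, 5 of the 32 beside 9.75% of all tested genes. Camk4, a calcium and calmodulin dependent kinase gene abundant in granule cells, had the largest of these changes, −0.56 (adjusted p = 0.0804). Its 15Q level of 124 ± 46.5 CPM (n = 3) ran from 88.2 to 177 CPM, and with 1 library left out the change ranged from −0.75 to −0.21. Prkg1, the cGMP-dependent protein kinase gene, had −0.42 (adjusted p = 0.0608), and all 5 genes lost the threshold without 15Q replicate 2 or without 15Q replicate 3. Camk4 lost it in 6 of the 9 fits, the others being those without 84Q replicate 2, 84Q replicate 3, 84Q+IGF1 replicate 1 or 84Q+IGF1 replicate 3. Shank1 lost it in 7 of the 9, and kept it only without 84Q replicate 2 or without 84Q+IGF1 replicate 2 (highest adjusted p 0.319). With the length trend removed, Shank1 (−0.02, adjusted p = 0.891) and Prkg1 (−0.34, adjusted p = 0.114) lost it in this contrast, and Pvalb (0.17, adjusted p = 0.0494), Calr (0.21, adjusted p = 0.0820) and Camk4 (−0.61, adjusted p = 0.0782) kept it. With a GC trend removed instead all 5 kept it, Shank1 at −0.28 (adjusted p = 0.0211).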

How the data were processed

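Cerebellar RNA libraries of 9 mice were made by the authors with a strand-specific kit and sequenced as paired 150-base reads. Per the labels and methods, reads were demultiplexed with bcl2fastq 2.20, trimmed with Trimmomatic 0.36, aligned to GRCm38.p6 with HISAT2 2.2.0 and counted with featureCounts. The annotation and the strand setting are not given in the sources used here. The deposited values are raw read counts per gene, and all 9 columns were used. Of the 37816 gene IDs, 37681 had a position and symbol in GENCODE vM21, from which TPM were computed with the summed exon length.

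Groups were taken from the labels. Nothing states separate litters or batches. The p-values rest on the spread between these mice, and the part of litter, cage or batch in them was not tested. The mouse names in the labels begin with a prefix of their own in the control group. In the other groups, some names share a leading number across groups. What these names stand for is not given, and they were not used as a block. Counts were tested in edgeR 4.0.16 (R 4.3.3, limma 3.58.1) with TMM scaling, filterByExpr, 1 quasi-likelihood fit over the 9 libraries and Benjamini-Hochberg adjustment over 19353 genes. A call needs an adjusted p under 0.1 and 1.5-fold, and the count without the fold requirement was added after the data were seen. The fit was checked on simulated counts. Alternatives were DESeq2 1.42.0, its size factors, no filter, Xist as a covariate (sex is not labelled), a block for the replicate number, only the libraries compared, each library left out, and, added after the data were seen, offsets for transcript length and GC content and leaving out 2 libraries. Counting error alone sets a floor of 3 counts, which is 0.0515 to 0.172 CPM. The summed levels over the 28 genes were not tested.

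The 28 genes and the other lists were chosen with earlier results of these data known. Values in every library were given for the 6 genes of highest mean TPM and, in each comparison, for called genes and otherwise the 3 of smallest p. Other genes were named from the lists as called genes or first markers, and the rest after their values were seen. Some results of the marker and pathway lists are not reported here.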

Additional observations from a re-analysis of the deposited data

Results flagged for a closer look

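Ebf1 had 130 CPM in 84Q+IGF1 replicate 3, while the other 5 libraries with 84 repeats had 111 to 117 CPM. The gap to the nearest library was 0.68 of the whole range of the 6, above the critical value of Dixon's test for an outlier. The 28 genes were examined in this way over these 6 libraries, and 1 was marked, where chance marks about 1 in 20. Without that library, the log2 fold change of Ebf1 in 84Q+IGF1 against 84Q was 0.01, against 0.08 with it.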

How the results depend on the processing

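Counts of the 28 genes at an adjusted p under 0.1 depended on the settings, and the cause was not tested. In 84Q against 15Q, where 3 passed, there were 0 with the replicate number as a block, 0 with the length offset, 0 at an adjusted p under 0.05, 1 with Xist as a covariate and 1 without the 2 libraries of steepest fall with length, but 2 with the GC offset and 4, Gng13 included, in DESeq2 (adjusted p of Gng13 0.0434) and with no filter. For 84Q+IGF1 against 15Q, where 0 passed, there were 3 in DESeq2, 5 with no filter and 1 in a fit of the compared libraries alone. For the 6 libraries with 84 repeats against 15Q, where 4 passed, there were 1 with the block, 2 with Xist, 2 with the length offset, 1 without the 2 libraries, 2 at an adjusted p under 0.05, 3 with the GC offset, 4 in DESeq2 and 5, Itpka included, with no filter. With 1 library left out these counts ranged from 0 to 4 (0 when 15Q replicate 2 or 3 or 84Q replicate 3 was left out), 0 to 2 and 0 to 5 (0 without 15Q replicate 3), and for 84Q+IGF1 against 84Q 0 to 0. The calls of the 28 stayed at 0 except with no fold threshold, 3 and 4. Of the 32 pathway genes, calls were 1 with no filter and 2 with no fold threshold in 84Q, 2 with no fold threshold in 84Q+IGF1, and 1 with the length offset and 5 with no fold threshold in the 6 libraries, and 0 to 2, 0 to 1, 0 to 0 and 0 to 1 with 1 library left out. Of the pathway genes at an adjusted p under 0.1, in 84Q Pvalb lost it with Xist (0.169), the block (0.165), the GC offset (0.106) and without the 2 libraries (0.168), and Shank1 with Xist (0.130), the block (0.102) and without the 2 libraries (0.226). In 84Q+IGF1 Calr lost it with Xist (0.129), the block (0.102) and without the 2 libraries (0.147), and Pvalb with the block (0.108). In the 6 libraries Camk4, Prkg1 and Shank1 lost it with Xist (0.194, 0.121 and 0.176), the block (0.164, 0.129 and 0.114) and without the 2 libraries (0.215, 0.141 and 0.206), Calr with Xist (0.105) and Camk4 in DESeq2 (0.166). The median log2 fold change of the 28 ranged with 1 library left out from 0.01 to 0.13, 0.00 to 0.14, −0.05 to 0.07 and 0.03 to 0.11 in the 4 comparisons. The replicate numbers did not pair the mice (correlations of the deviations from −0.309 to 0.0788 for the same number and from −0.241 to 0.295 for different numbers), and with the block Rora alone kept an adjusted p under 0.1 in the 6 libraries (−0.30, adjusted p = 0.0847). Log2 fold changes near 0, none past the test, changed sign. Without the 2 libraries of steepest fall, in 84Q, 84Q+IGF1 and the 6 libraries against 15Q, Car8 was −0.05, −0.03 and −0.04 and Rgs8 −0.03, 0.00 and −0.02, and Calb1 in 84Q+IGF1 was −0.01. With the length offset Itpr1 was 0.02, 0.03 and 0.02. With 1 library left out, in 84Q against 15Q Car8 ranged from −0.05 to 0.07 and Rgs8 from −0.03 to 0.12. For 84Q+IGF1 against 15Q Car8 ranged from −0.03 to 0.14, Calb1 from −0.01 to 0.14 and Rgs8 from 0.00 to 0.18, and in the 6 libraries Car8 from −0.01 to 0.09. Between 84Q+IGF1 and 84Q Car8 ranged from −0.05 to 0.12, Itpr1 from −0.05 to 0.17, Calb1 from −0.13 to 0.04, Dner from −0.14 to 0.00, Rgs8 from −0.05 to 0.14 and Ppp1r17 from −0.01 to 0.15. In 84Q and in the 6 libraries against 15Q, Rora, Slc1a6, Pcp2 and Gng13 kept their direction under every alternative run. With 3 mice a group, the wide intervals of Pcp4, Itpka and Ebf2 limit these genes most.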
